A study of Mus musculus with 45 samples.

Results

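Klf2, Klf4, Klf5 and Nanog, 4 transcription factor genes of the naive pluripotency network, were followed in every library of male mouse embryonic stem cells (ESCs) of the E14tg2a line, a wild-type line from strain 129/Ola. The members were chosen by gene symbol, and each symbol matched a single row, so that 4 of the 35372 genes counted were used. The 45 libraries hold strand-specific RNA-seq counts from cells kept either in 2iL, which is serum-free N2B27 medium with the inhibitors CHIR99021 and PD0325901 and the cytokine LIF, or in SL, which is serum with LIF. From each medium the cells were differentiated in 3 courses. The course labelled EB is suspension culture in serum without LIF, in which embryoid bodies form, the course labelled EpiSC is adherent culture in N2B27 with Fgf2 and ActivinA, and the course labelled Neural is adherent culture in N2B27 without either factor. RNA was sampled on days 0, 1, 1.5, 2, 2.5, 3, 5 and 7, with 1 library for each medium, course and day. In SL a single day 0 library serves all 3 courses, and day 5 of EpiSC from 2iL was not analysed here. All cells are of 1 line, none carries an allele or agent that differs between the groups beyond medium and course, and no source used here says that libraries are separate cultures. Where days or media were compared, the 3 courses of a day stood in for replicates. Those p-values measure the spread between these libraries and include what the courses do differently. Where courses were compared, the days and media of a course stood in for replicates. Days of 1 time course are not known to be separate cultures, so p-values there also measure only the spread between these libraries.

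Naive pluripotency is the state of the early epiblast that ESCs hold in culture, and it is kept by a set of transcription factors that sustain each other. Nanog is a homeodomain factor at the centre of this set, and Klf2, Klf4 and Klf5 are zinc finger factors of the Krüppel-like family that bind GC-rich and CACC motifs. The inputs of the family members differ. Klf4 is known to be induced by LIF through Stat3, Klf2 is induced when Mek and Erk signalling is blocked, as by PD0325901, and Klf5 is used in both settings. Loss of these factors accompanies exit from the naive state. Outside ESCs, Klf2 is known from endothelium, Klf4 and Klf5 from epithelia, and Nanog is expressed again in the posterior epiblast, where Fgf and Activin or Nodal signals act.

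On GRCm38, Klf2 (ENSMUSG00000055148) lies on the plus strand of chromosome 8 from 72319033 to 72321656, Klf4 (ENSMUSG00000003032) on the minus strand of chromosome 4 from 55527143 to 55532466, Klf5 (ENSMUSG00000005148) on the plus strand of chromosome 14 from 99298691 to 99315036, and Nanog (ENSMUSG00000012396) on the plus strand of chromosome 6 from 122707489 to 122714633. All 4 are protein-coding, and no other annotated gene overlaps any of them. Nanog has 2 annotated processed pseudogenes, Nanog-ps1 and Nanog-ps2, whose identifiers were not among the genes counted, so that reads shared with them could not be examined here. The promoters of Nanog, Klf2 and Klf4 are shown as the sequence just before a RefSeq start of genes that were lower after day 0. Each is the 250 bases before a RefSeq start site on GRCm38.p6, written from 5′ to 3′ along the gene, at chr6:122707239-122707488 (plus strand) for Nanog, chr8:72318812-72319061 (plus strand) for Klf2 and chr4:55532476-55532725 (minus strand) for Klf4. Capitals mark the octamer-Sox element in Nanog, which was searched on both strands with the letters shown and any base after TTTGCAT, the MEF2 element in Klf2, searched as CTA and TAG with any 4 bases between, and the GC box GGGCGG, on either strand, in Klf4.
Nanog: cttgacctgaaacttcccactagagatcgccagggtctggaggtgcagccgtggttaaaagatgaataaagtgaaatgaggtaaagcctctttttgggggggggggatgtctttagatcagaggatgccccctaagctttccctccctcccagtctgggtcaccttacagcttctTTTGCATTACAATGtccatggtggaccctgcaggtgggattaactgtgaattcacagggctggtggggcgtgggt
Klf2: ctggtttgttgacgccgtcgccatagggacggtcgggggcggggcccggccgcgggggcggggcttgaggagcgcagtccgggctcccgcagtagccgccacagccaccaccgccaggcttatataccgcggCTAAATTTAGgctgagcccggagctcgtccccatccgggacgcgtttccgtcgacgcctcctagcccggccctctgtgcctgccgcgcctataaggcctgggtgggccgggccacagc
Klf4: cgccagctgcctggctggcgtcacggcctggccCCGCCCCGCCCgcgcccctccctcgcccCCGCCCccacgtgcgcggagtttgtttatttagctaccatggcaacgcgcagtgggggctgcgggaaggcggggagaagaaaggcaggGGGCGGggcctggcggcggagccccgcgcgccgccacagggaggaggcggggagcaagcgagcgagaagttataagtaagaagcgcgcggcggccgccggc
The octamer-Sox element, which Oct4 and Sox2 bind, began 75 bases before the start site of Nanog used here and 151 bases before a second RefSeq start. Of 32851 promoter windows of this length, 2 (0.00609%) held the letters searched, and both were overlapping windows of Nanog. These letters are those of the Nanog window with only the base after TTTGCAT left free, so hardly any other window could match. Octamer-Sox elements with other letters were not searched, and the share does not tell how common such elements are. The MEF2 element in Klf2 began 118 bases before its start site and occurred in 3.20% of windows. The RefSeq start of Klf2 (72319062) lies inside the gene as annotated, which begins at 72319033, so the end of its window does too. The GC box was found 4 times in the window of Klf4 and 2 times in that of Klf2, was not found in either window of Nanog, and occurred in 32.7% of windows. The first 2 of the 4 matches in Klf4 overlap in the capitals. The CACC box CCACCC, on either strand, occurred 1 time in the window of Klf2 and 1 time in the second window of Nanog, and in 28.1% of windows. The element TTCNNNGAA, to which Stat3 can bind, was in 7.02% of windows and in none of these. These matches describe letters in a window, and binding was not measured.

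Library totals ran from 13093226 to 39804240 counts. The 8 libraries of EB from 2iL were deeper (from 31055159 reads) than all others except EB from SL at day 2 (37071102). The members received between 18 and 31588 reads in a library, so that none was at or near 0, and 3 reads in a library of median depth correspond to 0.165 CPM. CPM scales each count to a library total of 1000000. The markers of undifferentiated ESCs were present at day 0, with Pou5f1 at 488 to 719 CPM, Sox2 at 226 to 273 CPM and Esrrb at 561 to 836 CPM. In 2iL, Dppa3, a germ cell and naive ESC gene, was at 10.8 to 24.9 CPM, against 0.823 CPM in SL. Of the other germ cell markers, Ddx4 was at 2.26 to 2.65 CPM in 2iL and 27.8 CPM in SL. Dnd1 was at 1.53 to 2.88 and 6.53 CPM, and Prdm1 at 6.02 to 11.9 and 7.52 CPM. Markers of extraembryonic endoderm were higher in the SL library, with Gata4 at 15.1 CPM (0.607 to 1.28 CPM in 2iL) and Gata6 at 35.4 CPM (0.560 to 1.22 CPM in 2iL).

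At day 0, Nanog was by far the most abundant of the members. In 2iL it was at 939 CPM in the EB library, 1008 CPM in the EpiSC library and 837 CPM in the Neural library, and in SL at 632 CPM. Klf2 was at 95.5, 59.2 and 83.2 CPM in 2iL, in the same order, and at 38.2 CPM in SL. Both genes were higher in each 2iL library than in the SL library, but the share of all genes that were was not counted. Klf4 was at 89.6, 74.9 and 90.3 CPM in 2iL and at 89.8 CPM in SL, which is within the range of 2iL. Klf5 was at 106, 75.6 and 94.3 CPM in 2iL and at 114 CPM in SL, just above that range. Per kilobase of exon, the mean level in 2iL was 414 ± 38.3 CPM per kb (SD, n = 3) for Nanog, 42.9 ± 10.0 for Klf2, 27.9 ± 2.85 for Klf4 and 17.7 ± 2.99 for Klf5. On this scale the 2iL libraries of Klf2 (32.1 to 51.7 CPM per kb) did not overlap those of Klf4 (24.6 to 29.6), nor Klf4 those of Klf5 (14.5 to 20.5). In SL the order was Nanog (282 CPM per kb), Klf4 (29.5), Klf5 and Klf2 (20.7), so Klf2 was second in 2iL and last in SL.

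The comparison of 2iL with SL at day 0 asks how the starting medium sets the level of each factor. In the quasi-likelihood test of edgeR, with p-values adjusted over all genes by the Benjamini-Hochberg method, Klf2 was higher in 2iL by 1.12 ± 0.27 (log2 ± SE, adjusted p = 0.0147) and Nanog by 0.61 ± 0.20 (adjusted p = 0.0496). Klf4 differed by -0.02 ± 0.19 (adjusted p = 0.961) and Klf5 by -0.25 ± 0.21 (adjusted p = 0.402). Thus 2 of 4 members were called higher, where 13.5% of all 14948 genes tested were called higher and 17.3% lower. The test has 3 libraries in 2iL and 1 in SL, so its spread comes from 2iL alone. The call of Nanog was lost without the EB library (adjusted p = 0.0746), without the EpiSC library (0.112) and with library totals in place of TMM factors (0.113), and both calls were lost with the spread taken over all 45 libraries (0.300 for Klf2 and 0.742 for Nanog).

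Of 17 genes of the network around the members, 8 were called higher in 2iL and 1 lower. Prdm14, a naive repressor of differentiation genes, was higher by 1.96 (adjusted p = 0.00019), Tfcp2l1, a naive factor induced by LIF, by 1.66 (adjusted p = 0.0014), Nr5a2, an orphan nuclear receptor, by 1.25, and Il6st, the signalling subunit of the LIF receptor, by 1.06 on the log2 scale in edgeR's test. Socs3, the feedback inhibitor induced by Stat3, was the gene that was lower, by -0.79 (adjusted p = 0.018). Of the other 14 Klf genes, Klf8, Klf10 and Klf13 were higher in 2iL, and Klf6, Klf9, Klf14, Klf15 and Klf17 were lower. Klf14 and Klf17 were rare, with 0.0576 and 0.135 CPM on average in 2iL and 0.823 and 1.76 CPM in SL.

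**Figure D1:**
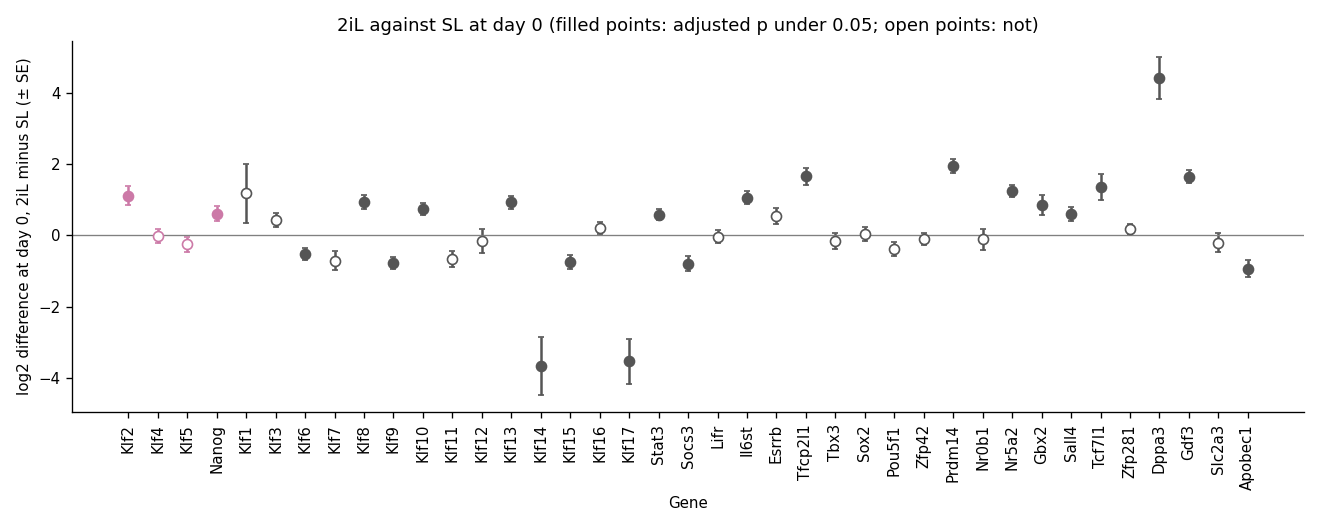
The plot of 2iL against SL at day 0 gives for each gene on the x axis the log2 difference (2iL minus SL, ± SE) on the y axis. The members are in pink, other Klf genes, network genes and neighbours of Nanog in grey, and filled points pass an adjusted p of 0.05. Klf2 (1.12) and Nanog (0.61) lie above 0 with filled points, Klf4 and Klf5 are open.

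Once the cells left 2iL, all 4 genes were below day 0 in every library of every later day. Fewer cells with a transcript and less RNA per cell cannot be told apart in these bulk samples. At day 1, Klf4 was at 13.9 CPM in EB, 19.5 CPM in EpiSC and 18.4 CPM in Neural, and Nanog at 169, 258 and 237 CPM. Klf2 was at 23.2, 12.1 and 19.4 CPM and Klf5 at 46.2, 53.8 and 49.5 CPM. For none of the 4 did the day 1 libraries overlap those of day 0, but the share of all genes that separated in this way was not counted. Relative to day 0 of the same course, 20.6 ± 5.26% (SD, n = 3) of Klf4 was left at day 1, 22.7 ± 1.98% of Klf2, 24.0 ± 5.35% of Nanog, and 43.3 to 71.1% of Klf5. Klf5 thus lay above the other members at this day in each course.

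The following hours separated the genes further. At day 1.5, Klf4 was at 2.48, 4.72 and 5.71 CPM in EB, EpiSC and Neural, and Nanog at 66.1, 64.8 and 51.9 CPM, which is 5.13 ± 2.05% and 6.56 ± 0.429% of day 0. Klf2, at 13.5, 15.7 and 20.4 CPM, kept 21.7 ± 6.64%, close to its share at day 1. Klf5, at 13.1, 33.3 and 27.8 CPM, kept 28.6 ± 15.9% and was the member with the widest spread between courses. On the log2 scale the fall of Klf4 from day 0 was -2.34 ± 0.54 (SE) at day 1, -4.40 ± 0.60 at day 1.5 and -6.05 ± 0.66 at day 2.5, where it was deepest (adjusted p = 2.44e-06, edgeR's quasi-likelihood test over the 23 libraries from 2iL). The fall of Nanog was deepest at day 2, with -4.06 ± 0.86 (adjusted p = 0.00116), and that of Klf2 at day 5, with -5.76 ± 0.77 (adjusted p = 1.34e-05). Klf5 stayed between -1.97 ± 0.35 and -2.98 ± 0.37 from day 1.5 to day 7.

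At day 1, 2 of 4 members were called lower than at day 0, where 14% of the 16306 genes tested were. From day 1.5 on all 4 were called lower on each day, against a background of 18.6% of genes (day 1.5), 20.8% (day 2), 22.3% (day 2.5), 24.1% (day 3), 25.3% (day 5) and 29.9% (day 7). The changes that did not pass at day 1 were those of Nanog (-2.03 ± 0.78, adjusted p = 0.0624) and Klf5 (-0.93 ± 0.34, adjusted p = 0.0509). Both passed in DESeq2 (adjusted p = 0.0390 and 0.0269) and with only the libraries of days 0 and 1 in the fit (5.2e-05 and 0.00178), an alternative chosen after seeing the data. The day 1 call of Klf2 was lost without EpiSC (adjusted p = 0.0782) and without Neural (0.0709), and without Neural that of Nanog was gained (0.00669). At day 5, with 2 libraries, Nanog was at 275 CPM in EB and 5.79 CPM in Neural, and its call was lost when only the libraries of days 0 and 5 were used (adjusted p = 0.176). That smaller fit called 756 of 15801 genes lower, where the main fit called 4126 of 16306 lower at day 5.

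**Figure D2:**
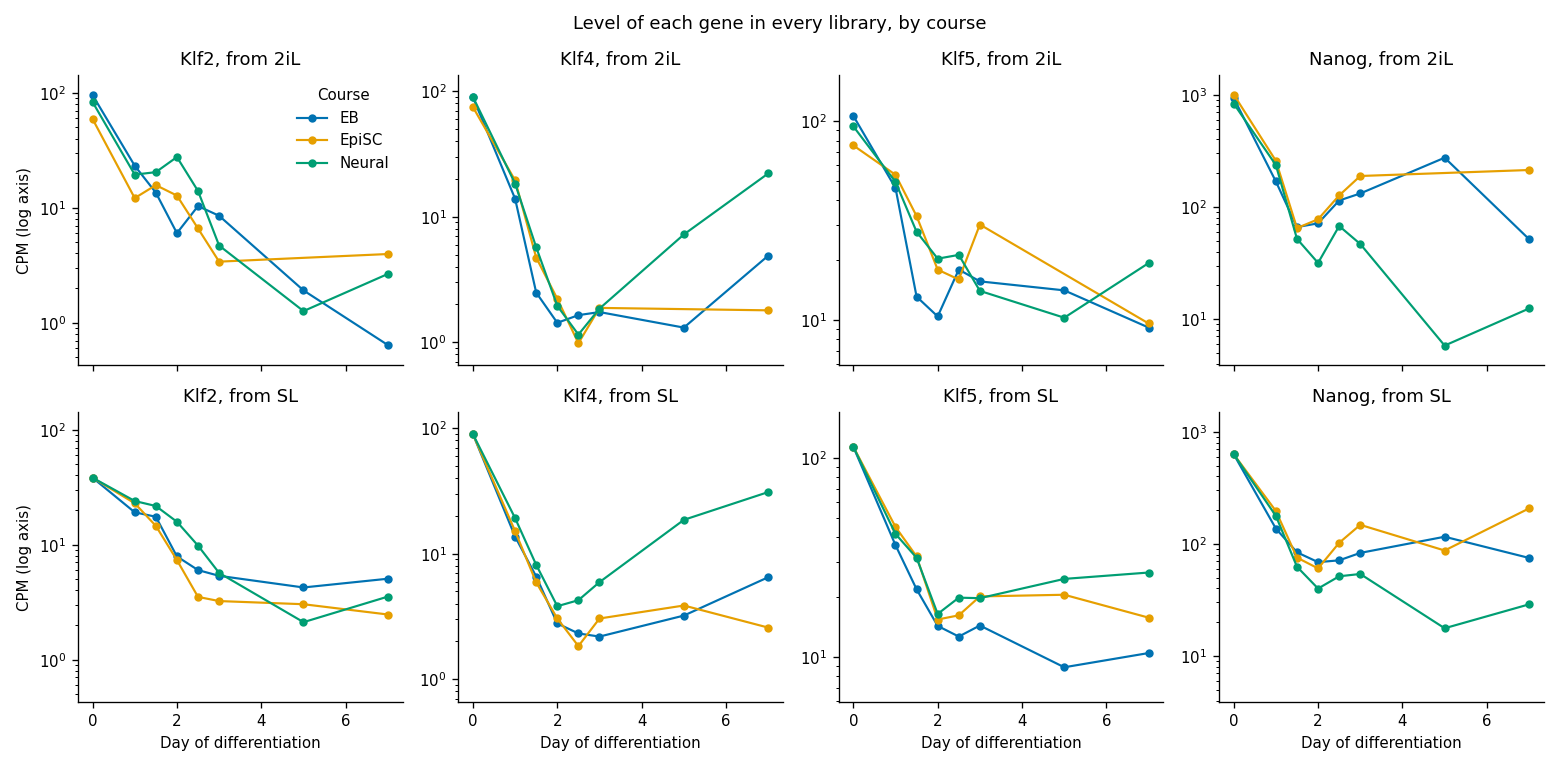
The plot of levels by day gives CPM on a log axis against the day of differentiation, with 1 point for each library and a line for each course; the upper row starts from 2iL and the lower row from SL, where the day 0 point is the same library in all courses. Klf4 turns up again in Neural, to 22.2 CPM from 2iL and 31.0 CPM from SL at day 7, while Nanog in Neural lies lowest from day 1.5 on.

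From SL all 4 genes were lower by day 2, and at days 1 and 1.5 Klf2 was the member that was not called. At day 1, Klf2 was at 19.1, 22.9 and 24.0 CPM in EB, EpiSC and Neural, which is 57.6 ± 6.67% (SD, n = 3) of the SL day 0 library, and at day 1.5 at 17.5, 14.6 and 21.7 CPM, or 46.9 ± 9.35%. All of these lie below the 38.2 CPM of day 0. Klf4 was at 13.7, 15.1 and 19.2 CPM at day 1 (17.8 ± 3.19%), and at 6.58, 5.91 and 8.15 CPM at day 1.5 (7.66 ± 1.28%). Nanog was at 137, 197 and 178 CPM at day 1 (21.7 to 31.1%), and Klf5 at 36.5, 45.1 and 41.6 CPM (36.0 ± 3.78%). In edgeR's test over the 22 libraries from SL, 3 of 4 members were called lower at days 1 and 1.5, where 9.69% and 13.8% of the 16482 genes were. All 4 were called lower from day 2, against 16.6% of genes (day 2), 16% (day 2.5), 14.8% (day 3), 18.5% (day 5) and 21% (day 7). Klf2 had changed by -0.73 ± 0.40 (SE) at day 1 (adjusted p = 0.213) and -1.04 ± 0.39 at day 1.5 (adjusted p = 0.0604), and fell by 3.36 ± 0.39 until day 7 (adjusted p = 1e-05). The single SL library at day 0 enters every one of these values. Several of these calls depended on the fit. Without EB, the day 1 calls of Klf4 (adjusted p = 0.0577) and Nanog (0.129) were lost, without EpiSC those of Klf5 (0.0541) and Nanog (0.0966), and without Neural, Klf2 passed at day 1.5 (0.0179). Without the course as replicate block, the day 1 calls of Klf4 (adjusted p = 0.117), Klf5 (0.0690) and Nanog (0.160) were lost, and in DESeq2 that of Nanog (0.0699). When this block was dropped and the fit held just the 2 days in question, an alternative chosen after seeing the data, 17 calls were made from SL in place of 26. The calls of all 4 genes at day 5 and of Klf4, Klf5 and Nanog at day 7 were among those lost there, and Klf2 passed at day 1 (-0.75). With its single day 0 library, this fit called no gene of any kind at day 5 and few at day 7. The losses on these days are therefore not particular to the members.

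**Figure D3:**
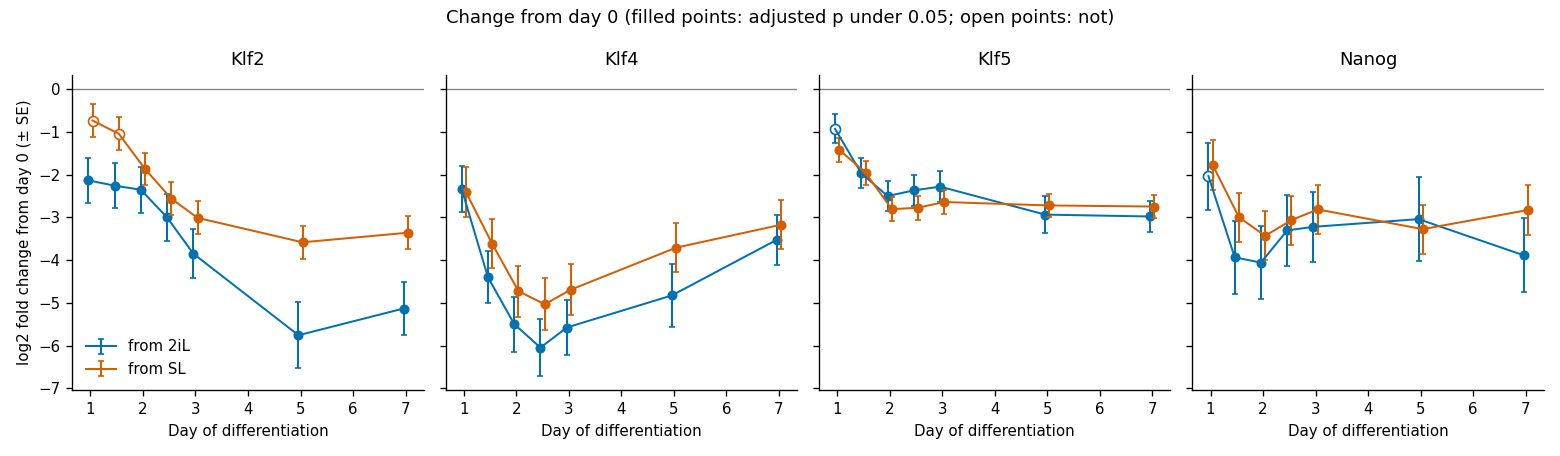
The plot of change from day 0 shows the log2 fold change (± SE) of each gene against the day of differentiation, in blue from 2iL and in orange from SL. Filled points pass an adjusted p of 0.05, which all do except Klf5 and Nanog at day 1 from 2iL and Klf2 at days 1 and 1.5 from SL.

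Levels after the start of differentiation were set side by side between the media to ask whether the medium of origin is still seen. In the libraries from day 1 on, 0 of 28 differences between 2iL and SL (4 genes on 7 days) passed in edgeR's test, 0 had an unadjusted p under 0.05, and DESeq2 called 0. Of the 16467 genes tested, the share called was 14.1% (day 1), 12.1% (day 1.5), 8.25% (day 2), 2.54% (day 2.5), 0.571% (day 3), 0.134% (day 5) and 0.0911% (day 7). At day 1 the log2 difference (2iL minus SL, ± SE) was -0.28 ± 0.45 for Klf2, 0.15 ± 0.53 for Klf4, 0.30 ± 0.29 for Klf5 and 0.42 ± 0.65 for Nanog, so that differences of a log2 unit in Nanog would lie within these errors. Klf4 was lower from 2iL than from SL in each course on each day from 1.5 to 7 where both media had a library. The estimated differences lay between -0.43 ± 0.53 and -1.18 ± 0.63, with adjusted p values from 0.435 to 0.951 in edgeR's test. These pairs of libraries were not tested on their own. The fit gives each course a fixed offset over days 1 to 7, so courses that part late add to its errors. The difference of Nanog at day 5, 0.99 ± 0.73, turned to -2.26 without EB.

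The change from day 0 was then compared between the media in a fit over all 45 libraries. None of the 28 differences passed in edgeR's test, 2 had an unadjusted p under 0.05 (Klf2 at days 5 and 7), and DESeq2 called 1, Klf2 at day 5. Of the 17107 genes tested, the share called was 8.13% (day 1), 10.6% (day 1.5), 11.3% (day 2), 14% (day 2.5), 13.4% (day 3), 13.8% (day 5) and 16.5% (day 7). Klf2, which started higher in 2iL, had a log2 change from 2iL minus that from SL of -1.44 ± 0.78 (SE) at day 1 (adjusted p = 0.278) and -2.24 ± 0.87 at day 5 (adjusted p = 0.0825 in edgeR, 0.0395 in DESeq2 and 0.0414 in edgeR without EB). For Klf5 the same difference stayed between -0.28 ± 0.51 and 0.45 ± 0.50.

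Each gene had its own shape after the first fall. Klf2 went on down, and its mean over days 5 and 7 was below that of days 2.5 and 3 in 6 of 6 combinations of medium and course. Its lowest value was 0.639 CPM at day 7 of EB from 2iL, which is 0.669% of day 0. Klf4 had its lowest value between days 2 and 2.5 in 4 of the 6 combinations, at day 3 in EB from SL and at day 5 in EB from 2iL. Its mean over days 5 and 7 was above that of days 2.5 and 3 in 6 of 6 combinations, with ratios of 9.79 and 4.87 in Neural from 2iL and SL, 1.84 and 2.16 in EB, and 1.26 and 1.32 in EpiSC. Klf5 ranged from 8.87 to 30.2 CPM in the libraries from day 2.5 to day 7, and in EpiSC from 2iL it was at 16.0 CPM on day 2.5, 30.2 CPM on day 3 and 9.60 CPM on day 7.

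Nanog parted by course after the first fall. Its lowest value came at day 1.5 or 2 in EpiSC from both media and in EB from SL. In EB from 2iL the lowest value was at day 7 (51.6 CPM), and in Neural at day 5 (5.79 CPM from 2iL and 17.7 CPM from SL). Its mean over days 2.5 and 3 was above that of days 1.5 and 2 in 6 of 6 combinations, with ratios of 1.79 in EB, 2.22 in EpiSC and 1.37 in Neural from 2iL, and of 1.01, 1.84 and 1.03 from SL. In EpiSC from 2iL it was at 64.8 CPM on day 1.5, 127 CPM on day 2.5, 189 CPM on day 3 and 214 CPM on day 7, and from SL at 60.5 CPM on day 2, 148 CPM on day 3, 87.3 CPM on day 5 and 207 CPM on day 7. In Neural from 2iL it was at 67.6 CPM on day 2.5, 5.79 CPM on day 5 and 12.4 CPM on day 7, and from SL at 51.4, 17.7 and 28.9 CPM on these days. No Neural library of days 5 and 7 reached the level of any EB or EpiSC library of those days. How many of all genes separated in this way was not counted. These ratios describe single libraries and were not tested.

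The courses were compared within 3 windows of days, over both media, to ask whether the medium of differentiation sets the level of each factor. In the window of days 1 to 2, with 6 libraries for each course, the 3 Klf genes were lower in EB than in Neural and Nanog was not called. Klf2 ranged from 6.01 to 23.2 CPM in EB, 7.35 to 22.9 CPM in EpiSC and 15.8 to 27.6 CPM in Neural, so that single libraries overlapped. The log2 difference of EB minus Neural was -0.75 ± 0.25 (SE) for Klf2 (adjusted p = 0.0238), -0.62 ± 0.12 for Klf4 (adjusted p = 0.00124), -0.58 ± 0.14 for Klf5 (adjusted p = 0.0050) and 0.20 ± 0.15 for Nanog (adjusted p = 0.317) in edgeR's quasi-likelihood test with day and medium as a block. These 3 of 4 stand against 19.9% of the 15013 genes called lower, and 22% were called higher. Klf5 was also lower in EB than in EpiSC (-0.50 ± 0.14, adjusted p = 0.0148), the single call of the 4 where 16.9% of genes were lower, and none of the 4 was called by edgeR between EpiSC and Neural, where 6.59% of genes were called in either direction. Klf2 differed there by -0.79 ± 0.25 (adjusted p = 0.0702 in edgeR and 0.0113 in DESeq2). Without the block, the 4 calls of this window were lost, with adjusted p values from 0.140 to 0.624. They also rest in part on single days, as without day 1.5 the calls of Klf2 (adjusted p = 0.108) and Klf5 (0.0586 against Neural and 0.198 against EpiSC) were lost, and without day 2 that of Klf2 (0.221). All 4 markers of epiblast (Fgf5, Otx2, Pou3f1 and Dnmt3b) and all 4 of simple epithelium (Krt8, Krt18, Cdh1 and Epcam) were higher in EB than in Neural in this window, with epiblast sums of 1118 to 2952 CPM in EB and 394 to 971 CPM in Neural, and the neural markers Pax6, Sox1 and Tubb3 were lower in EB. Their part in the levels of the members was not tested.

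In the window of days 2.5 and 3, with 4 libraries for each course, Nanog differed between all 3 pairs of courses. It was at 100.1 ± 27.9 CPM (SD) in EB, 141 ± 36.8 in EpiSC and 54.9 ± 8.97 in Neural. The log2 difference was 0.71 ± 0.17 (SE) for EB minus Neural (adjusted p = 0.00875), 1.25 ± 0.18 for EpiSC minus Neural (adjusted p = 0.00282) and -0.54 ± 0.17 for EB minus EpiSC (adjusted p = 0.0367). Klf2 was lowest in EpiSC, with 4.19 ± 1.61 CPM against 7.56 ± 2.30 in EB and 8.54 ± 4.25 in Neural, and differed there from Neural by -1.08 ± 0.24 (adjusted p = 0.0160) and from EB by 0.86 ± 0.23 (EB minus EpiSC, adjusted p = 0.0197). Of the 4 genes, 1 was called higher between EB and Neural (20.4% of the 15196 genes were), 2 between EpiSC and Neural (14.8% in either direction) and 2 between EB and EpiSC (31.1%). Without day 3 the 5 calls were lost, with adjusted p values from 0.0689 to 0.142, and without day 2.5 those of Klf2 (0.289 and 0.0874) and of Nanog between EB and EpiSC (0.0687), while each kept its direction. Both calls of Klf2 and that of Nanog between EB and EpiSC were also lost without the block (adjusted p = 0.125, 0.154 and 0.113) and with 2iL alone (0.133, 0.0619 and 0.269). The 4 epiblast markers were higher in EB than in both other courses (sums of 2930 to 3459 CPM in EB, 616 to 1483 CPM in EpiSC and 437 to 939 CPM in Neural). Of 5 markers of undifferentiated ESCs, Pou5f1 and Esrrb were called higher in EB than in Neural. Between EpiSC and Neural, Pou5f1 was called higher and Sox2 lower in EpiSC. The part of these markers in the levels of the members was likewise not tested.

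In the window of days 5 and 7, Klf4 and Nanog stood on opposite sides in Neural. Klf4 was at 7.23 and 22.2 CPM in Neural from 2iL on days 5 and 7, and at 18.6 and 31.0 CPM from SL. In EB it was at 1.31 and 4.90 CPM from 2iL and 3.21 and 6.50 CPM from SL, and in EpiSC at 1.79 CPM from 2iL at day 7 and 3.86 and 2.57 CPM from SL. All 4 Neural libraries lay above all 7 others, but the share of all genes that separated in this way was not counted. At its highest in Neural, 31.0 CPM (95% Wilson interval 28.2 to 34.1, counting error only), Klf4 reached 34.5% of the SL day 0 level. The log2 difference of Klf4 was -2.43 ± 0.30 (SE) for EB minus Neural (adjusted p = 0.00261) and -3.20 ± 0.36 for EpiSC minus Neural (adjusted p = 0.00286). Nanog differed the other way, by 2.73 ± 0.67 (adjusted p = 0.0204) and 3.40 ± 0.68 (adjusted p = 0.0169), with 129 ± 101 CPM (SD, n = 4) in EB, 169 ± 71.2 (n = 3) in EpiSC and 16.2 ± 9.75 (n = 4) in Neural. In each of these comparisons 2 of 4 members were called, where 28.7% (EB and Neural) and 16% (EpiSC and Neural) of the 15466 genes were, and none was called between EB and EpiSC, where 2.63% of genes were. Klf5 was at 20.2 ± 7.31 CPM in Neural and 10.6 ± 2.40 CPM in EB, a difference of -0.97 ± 0.34 (EB minus Neural, adjusted p = 0.0648) that passed without day 5 (-1.30, adjusted p = 0.0359). Klf2 had means of 2.96 CPM in EB, 3.15 CPM in EpiSC and 2.39 CPM in Neural. With 2iL alone these differences kept their direction and none passed (Klf4 -2.43 and -3.89, Nanog 3.67 and 4.58, adjusted p from 0.0908 to 0.377), with SL alone those of EB minus Neural did not pass (Klf4 -2.46, adjusted p = 0.0632, and Nanog 2.03, adjusted p = 0.0817), and without day 7 that of Nanog between EpiSC and Neural was lost (adjusted p = 0.0796).

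Markers of other cell types moved between the same courses. Of all genes tested in this window, 15.7% were called lower and 13.1% higher in EB than in Neural. In EpiSC, 8.67% were called lower and 7.35% higher than in Neural. At days 5 and 7, 3 of 7 markers of extraembryonic endoderm (Gata4, Gata6 and Sox17) were called lower and 1 (Afp) higher in EB than in Neural, and 5 of 7 were lower in EpiSC than in Neural. Their summed level was 130.3 to 471 CPM in Neural, 68.0 to 895 CPM in EB and 19.0 to 56.5 CPM in EpiSC. Of 5 neural markers, 3 (Nes, Pax6 and Tubb3) were lower in EB than in Neural and none was called between EpiSC and Neural, with sums of 394 to 631 CPM in Neural, 107 to 281 CPM in EB and 187 to 454 CPM in EpiSC. All 3 primitive streak markers (T, Mixl1 and Eomes) were higher in EB and EpiSC than in Neural, with sums of 135 to 714 CPM in EB, 19.3 to 77.3 CPM in EpiSC and 3.56 to 7.29 CPM in Neural. Of 4 epiblast markers, 3 (Dnmt3b, Fgf5 and Otx2) were higher in EB and 2 (Fgf5 and Otx2) in EpiSC than in Neural, with sums of 313 to 2465 CPM in EB, 433 to 756 CPM in EpiSC and 132 to 325 CPM in Neural. Of 5 markers of undifferentiated ESCs, Tfcp2l1 was lower in EB than in Neural, and none was called between EpiSC and Neural. Of 6 endothelial markers, 2 of the 5 tested (Cdh5 and Tek) were lower in EB and in EpiSC than in Neural, with sums of up to 36.0 CPM in Neural, 12.6 to 168 CPM in EB and 10.9 to 21.6 CPM in EpiSC. None of 4 simple epithelium markers passed between any courses in this window, with sums of 995 to 1113 CPM in EB, 707 to 1660 CPM in EpiSC and 374 to 1451 CPM in Neural. No marker of these lists was at 0 in all libraries of a course there, although Emcn (endothelium) was at 0 in EB and Neural from SL, and the part of such cells in the levels of Klf4 and Nanog was not tested.

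**Figure D4:**
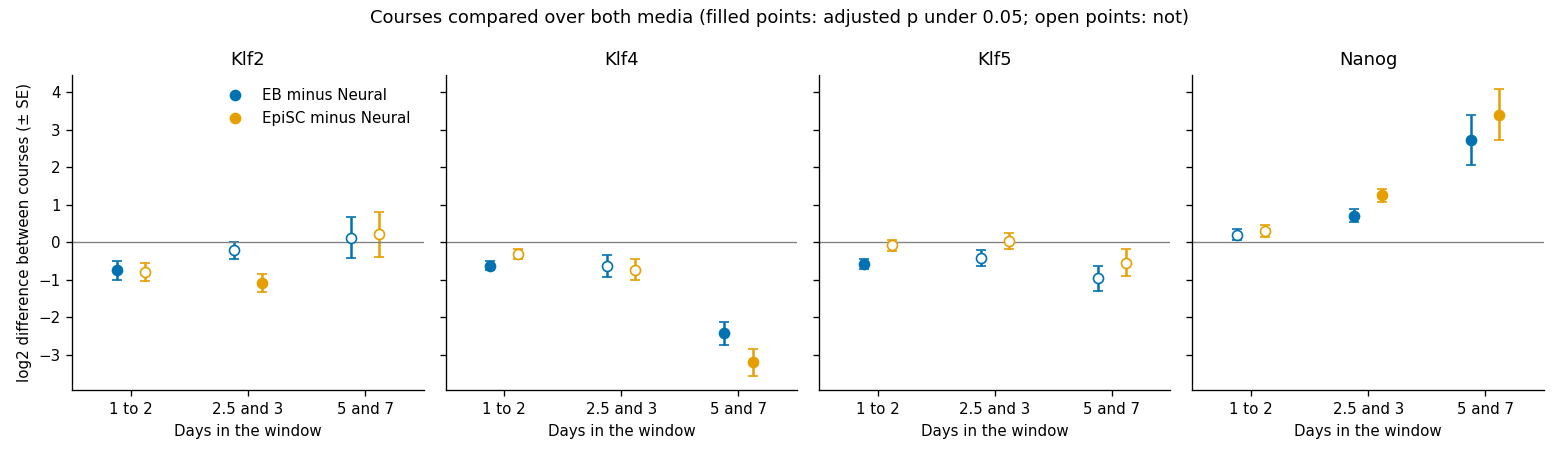
The plot of courses compared gives the log2 difference (± SE) of EB minus Neural in blue and of EpiSC minus Neural in orange for each window of days, with filled points where the adjusted p is under 0.05. Klf4 lies at -2.43 and -3.20 and Nanog lies at 2.73 and 3.40 in the window of days 5 and 7, while Klf2 and Klf5 stay within 1.1 of 0.

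The change from days 2.5 and 3 to days 5 and 7 was compared between courses in a single fit. For Klf4 it was lower in EB than in Neural by -1.77 ± 0.42 (log2 ± SE, adjusted p = 0.0146) and lower in EpiSC than in Neural by -2.47 ± 0.46 (adjusted p = 0.0100). This is 1 of 4 members in each comparison, where 5.74% and 1.87% of the 16058 genes were called lower. For Nanog the difference was 2.04 ± 0.69 (EB minus Neural, adjusted p = 0.0652) and 2.17 ± 0.69 (EpiSC minus Neural, adjusted p = 0.102), and the former passed in DESeq2 (adjusted p = 0.0350). None of the 4 was called between EB and EpiSC, where 1.1% of genes were. The calls of Klf4 were lost without day 2.5 (adjusted p = 0.170 and 0.142) or without day 3 (0.0946 and 0.159), the call against EpiSC also without day 7 (0.174), and for Nanog EpiSC minus Neural passed without day 5 (0.00371), as did EB minus EpiSC (-1.24, 0.0493), and EB minus Neural passed without day 7 (0.0109).

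The rest of the Klf family was divided. At day 1.5 from 2iL, 3 of the 14 other Klf genes were called lower and 2 higher, with a median log2 change of -0.01, where 18.6% of all genes were lower and 20.1% higher and the median of all genes was 0.04. Klf15 was lower by -2.97 (adjusted p = 0.00015), Klf8 by -2.38 (adjusted p = 0.0013) and Klf3 by -1.16 (adjusted p = 0.0026), while Klf17 was higher by 2.89 (adjusted p = 0.00071) and Klf7 by 0.91 (adjusted p = 0.0036) in edgeR's test. Klf17 was rare, at 0.135 CPM on average at day 0, under the level of 3 reads in a library of median depth, and at 1.06 CPM at day 1.5. From SL, 2 were lower (Klf9 and Klf15) and 1 was higher (Klf13), where 13.8% of genes were lower and 12.3% higher. At day 7 from 2iL, 5 were lower and 4 higher, where 29.9% and 33.8% of genes were, and from SL 4 were lower and 3 higher, where 21% and 21.1% were. Klf7, a family member known from the nervous system, was at 6.89 ± 1.24 CPM (SD, n = 3) at day 0 in 2iL and 29.0 ± 1.23 CPM at day 7, a rise of 2.04 (log2, adjusted p = 1.03e-06), and rose by 1.43 from SL (adjusted p = 0.0042). Klf6, an immediate early gene, rose by 1.68 from 2iL (adjusted p = 1.8e-05) and also from SL (adjusted p = 0.0046). Klf8 is the family member that stood with Klf4 in the late window. It was lower at days 5 and 7 in EB (17.3 CPM) and in EpiSC (5.87 CPM) than in Neural (38.6 CPM), by -1.20 (adjusted p = 0.0101) and -2.89 (adjusted p = 0.0020).

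Among the 17 genes of the network, 8 were called lower and 1 higher at day 1 from 2iL, where 14% of all genes were lower and 14.6% higher. At day 1.5, 11 were lower and 1 higher, where 18.6% and 20.1% were, with a median log2 change of -1.44. From SL, 9 were lower and 1 higher at day 1.5, where 13.8% and 12.3% were. Of the 17 genes, Socs3 had the lowest log2 change at day 1, with -3.91 (adjusted p = 1.6e-05) from 2iL and -3.72 (adjusted p = 2.4e-06) from SL. Stat3, the LIF effector, changed by -2.15 and -1.57, and Tfcp2l1 by -3.12 and -1.84. Il6st fell by 1.28 at day 1 from 2iL (adjusted p = 0.00045) and was at 0.04 from SL (adjusted p = 0.93), and the difference between the media passed (-1.35, adjusted p = 0.0197). Pou5f1 (Oct4) was at 0.27 at day 1 and -0.06 at day 1.5 from 2iL (adjusted p = 0.80 and 0.95), Zfp42 (Rex1) at -0.02 at day 1, and Nr0b1, another naive factor, at 1.68 (adjusted p = 0.088), so that these genes did not pass at a day when Klf2 and Klf4 did. Zfp281, a factor of the exit from the naive state, was the gene that rose, by 0.85 at day 1 from 2iL and 0.88 from SL (adjusted p = 0.00038 and 0.0066).

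**Figure D5:**
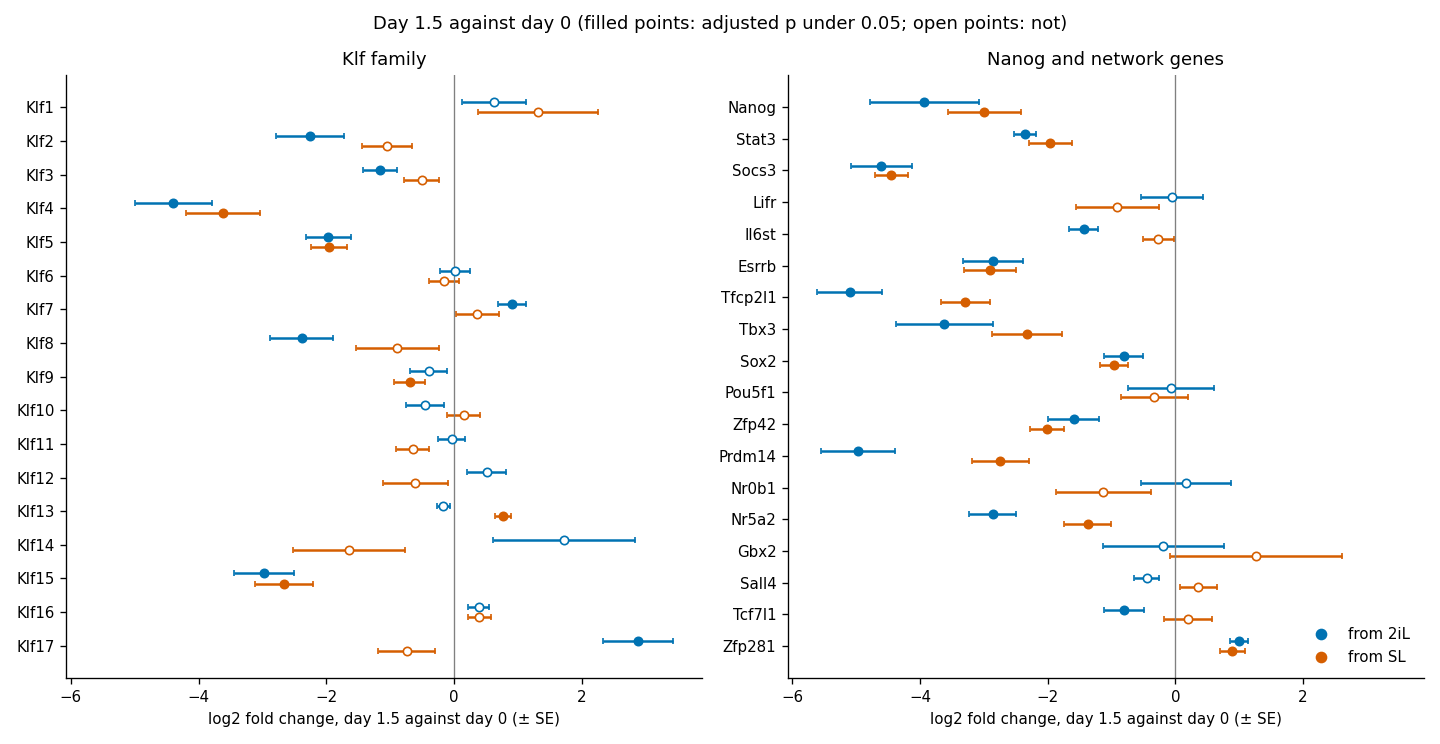
The plot of the family and network gives the log2 fold change at day 1.5 against day 0 (x axis, ± SE) for 17 Klf genes on the left and for Nanog with the 17 network genes on the right, in blue from 2iL and in orange from SL, with filled points where the adjusted p is under 0.05. Klf4 (-4.40 and -3.62) lies farthest to the left of its family, and Socs3 (-4.61 and -4.45) and Tfcp2l1 (-5.11 and -3.29) lie on the same side among the network genes.

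Nanog has neighbours on chromosome 6 that are also known from pluripotent cells. Dppa3 lies 77.2 kb, Gdf3, a ligand of the Nodal type, 97.4 kb and Slc2a3, a glucose transporter, 13.2 kb away. At day 0, Dppa3 (log2 difference 4.41, adjusted p = 0.00081) and Gdf3 (1.65, adjusted p = 0.00025) were higher in 2iL, Apobec1 was lower (-0.94, adjusted p = 0.017), and Slc2a3 was not called (-0.20, adjusted p = 0.61). Dppa3 fell by 3.11 at day 1 from 2iL (adjusted p = 0.00047), and Gdf3 was at -0.05 at day 1 (adjusted p = 0.95) and fell by 4.06 until day 7 (adjusted p = 1.2e-05). Slc2a3 fell by 1.95 until day 1.5 from 2iL and was at 0.35 at day 7 (adjusted p = 0.30). Apobec1, at a distance of 105 kb, was lower than at day 0 on day 5 (-3.35, adjusted p = 0.00139) and on day 7 (-2.16, adjusted p = 0.0048). Thus 2 of these 4 neighbours were lower at day 1.5 from 2iL, where 18.6% of all genes were, and 3 at day 7, where 29.9% were.

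The genes whose pattern over the 45 libraries was most like that of each member were found by Pearson's r of log2(CPM + 1) among 10856 other genes with a mean of at least 5 CPM. The libraries share courses, days and media, so r describes these libraries and has no test. For Klf4 they were Susd2 (r = 0.945, Spearman's rho = 0.892), Abca1, a cholesterol transporter (0.933 and 0.888), and Tfcp2l1 (0.917 and 0.821). For Klf2 they were Accsl (0.921 and 0.901), Kat6b, a histone acetyltransferase (0.916 and 0.902), and AI467606 (0.906 and 0.892). For Klf5 they were Pcsk6, a protease that processes Nodal precursors (0.911 and 0.886), Laptm5 (0.906 and 0.813) and Pde8a, a phosphodiesterase (0.898 and 0.828). For Nanog they were Irf2bpl (0.875 and 0.781), Eif2s2, a subunit of the translation factor eIF2 (0.868 and 0.696), and Zbtb44 (0.852 and 0.799). Among the members, r was 0.821 between Klf4 and Klf5, 0.776 between Klf2 and Klf5, 0.622 between Klf5 and Nanog, 0.563 between Klf2 and Nanog, 0.557 between Klf2 and Klf4, and 0.400 between Klf4 and Nanog, where rho was 0.116. No member was among the 3 genes most like another member.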

How the data were processed

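Strand-specific RNA-seq of 45 libraries was used. The authors trimmed reads with TrimGalore, mapped them to GRCm38 with TopHat2 guided by Ensembl 82 models, counted them per gene with featureCounts and deposited raw counts, without normalization. From these counts, fits were made with R 4.3.3, edgeR 4.0.16 (filterByExpr, TMM, quasi-likelihood test) and DESeq2 1.42.0 as an alternative; CPM and correlations were computed with Python 3.11.15. The functions were tested on simulated data. p-values were adjusted over all genes tested by the Benjamini-Hochberg method (threshold 0.05). Days were compared with course as a block, and courses with day and medium as a block. The libraries of a course deviated together (mean correlation of deviations 0.401 within courses), and the pairing comes from the labels. Deviations were taken from the mean of the courses of a medium and day, which by itself makes the value between courses (-0.193) negative. No library was a copy of another of its medium and day, as squared differences in these 43 pairs were at least 17.4 times counting noise. Other pairs were not compared in this way. The text names the members, the lists of the Klf family, the network and the neighbours of Nanog, and the 3 genes most like each member. Members and lists were chosen with earlier results of these data known. Promoters come from RefSeq on GRCm38.p6, which gave windows for 3 of 4 members (Klf5 was not listed), and gene positions from an annotation of GRCm38. Pseudocounts, filters and left-out libraries were varied. A further neighbour of Nanog is not reported here.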

Additional observations from a re-analysis of the deposited data

Results flagged for a closer look

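The change of Klf4 from days 2.5 and 3 to days 5 and 7 differed between courses by a test of the difference itself. It was lower in EB than in Neural by -1.77 (log2, adjusted p = 0.0146) and lower in EpiSC than in Neural by -2.47 (adjusted p = 0.0100) in edgeR's quasi-likelihood test. Within a single medium the former was -2.49 from 2iL (adjusted p = 0.0490) and -1.25 from SL (adjusted p = 0.277), and the latter was -3.63 from 2iL (adjusted p = 0.0960) and -1.86 from SL (adjusted p = 0.226), so that the direction held in each.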

How the results depend on the processing

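Of 1500 values of single members under all alternatives, 1353 kept their direction and their side of the threshold, 67 lost and 26 gained a call, and 54 changed sign, of which 0 passed in either fit. For the days from SL, 17 calls in place of 26 were made when only the libraries of the days compared were used, without the replicate block, and 23 without the block alone. From 2iL, 26 were made with and without the block. At day 0, 1 of the 2 calls was left with library totals and 0 with the spread over all 45 libraries. The change from day 0 compared between media had 1 call with DESeq2 and 0 without the replicate block. The comparison of courses had 13 calls, 7 without the replicate block and 6 with 2iL alone. The late change had 2 calls, 1 with 2iL alone and 0 with SL alone. Of the 12 genes most like the members, 4 were again among the first 3 by Spearman's rho, 8 with a pseudocount of 0.1 CPM and 9 with a minimum mean of 1 CPM. Leaving out a course, day or library in turn gave 25 to 26 calls from 2iL, 24 to 27 from SL, 1 to 2 at day 0, 0 between media after day 0, 0 to 1 for the change between media, 8 to 14 between courses, 0 to 4 for the late change and 4 to 5 of the 12 genes. The cause of these shifts was not tested. The SE of Nanog between media after day 0 was 0.65 to 0.73, so a difference of a log2 unit on a day would not have passed in that fit. The fit has 1 library for a medium, course and day and holds each course at a fixed offset over the days. The part of either in these errors was not tested.

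The sign changes were of values that did not pass. Without the filter on low counts, sign changed for Klf4 in 2iL minus SL at day 0 (0.017). With the spread over all 45 libraries, sign changed for Klf4 in 2iL minus SL at day 0 (0.037). With library totals, sign changed for 2iL minus SL after day 0 Nanog, day 2 (-0.00092), for the change compared between media Klf5, day 1.5 (0.026) and for the courses Klf5, EpiSC minus Neural, days 1 to 2 (0.048). Without the replicate block, sign changed for the change compared between media Klf5, day 1.5 (0.0024), for the courses Nanog, EB minus Neural, days 1 to 2 (-0.076) and Klf4, EB minus EpiSC, days 2.5 and 3 (-0.0035). With 2iL alone, sign changed for the courses Klf4, EB minus Neural, days 2.5 and 3 (0.035), Klf2, EB minus Neural, days 2.5 and 3 (0.011), Klf2, EB minus Neural, days 5 and 7 (-0.83), Klf5, EB minus EpiSC, days 5 and 7 (0.44) and for the late change Klf2, EB minus Neural (-0.87). With SL alone, sign changed for the courses Klf5, EpiSC minus Neural, days 2.5 and 3 (-0.14), Klf4, EB minus EpiSC, days 2.5 and 3 (-0.17), Klf2, EpiSC minus Neural, days 5 and 7 (-0.031), Klf2, EB minus EpiSC, days 5 and 7 (0.67), for the late change Klf5, EB minus EpiSC (-0.49) and Nanog, EB minus EpiSC (0.17). Leaving out a course, day or library changed the sign of 2iL minus SL at day 0 for Klf4, day 0 (-0.10 to 0.087). Leaving out a course, day or library changed the sign of 2iL minus SL after day 0 for Klf2, day 1.5 (-0.17 to 0.019), Klf2, day 3 (-0.050 to 0.40), Nanog, day 5 (-2.26 to 1.61), Klf2, day 7 (-1.54 to 0.20), Klf2, day 1 (-0.62 to 0.047), Nanog, day 2 (-0.046 to 0.22), Klf5, day 3 (-0.074 to 0.30), Klf5, day 2 (-0.10 to 0.35) and Klf5, day 5 (-1.21 to 0.26). Leaving out a course, day or library changed the sign of the change compared between media for Klf5, day 1.5 (-0.34 to 0.28), Nanog, day 5 (-3.04 to 0.91), Klf4, day 1 (-0.20 to 0.28), Klf5, day 3 (-0.049 to 0.53) and Klf5, day 5 (-0.89 to 0.42). Leaving out a course, day or library changed the sign of the courses for Klf2, EB minus EpiSC, days 1 to 2 (-0.17 to 0.22), Nanog, EB minus EpiSC, days 1 to 2 (-0.20 to 0.076), Nanog, EB minus Neural, days 1 to 2 (-0.095 to 0.54), Klf5, EpiSC minus Neural, days 1 to 2 (-0.14 to 0.021), Klf2, EB minus Neural, days 2.5 and 3 (-0.75 to 0.35), Klf4, EB minus EpiSC, days 2.5 and 3 (-0.30 to 0.52), Klf5, EpiSC minus Neural, days 2.5 and 3 (-0.48 to 0.54), Klf2, EB minus Neural, days 5 and 7 (-0.52 to 0.70), Klf5, EpiSC minus Neural, days 5 and 7 (-0.99 to 0.093), Klf4, EB minus EpiSC, days 5 and 7 (-0.32 to 1.41), Klf2, EB minus EpiSC, days 5 and 7 (-0.56 to 0.32) and Nanog, EB minus EpiSC, days 5 and 7 (-1.76 to 1.07). Leaving out a course, day or library changed the sign of the late change for Klf2, EB minus Neural (-0.29 to 0.91), Nanog, EB minus EpiSC (-1.24 to 1.61), Klf5, EB minus EpiSC (-0.31 to 0.34), Klf5, EpiSC minus Neural (-1.08 to 0.068) and Klf4, EB minus EpiSC (-0.43 to 1.29).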
